A study of Mus musculus with 17 samples.

Results

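The 10 genes described here, Sox3, Sox4, Sox7, Sox9, Sox11, Sox12, Sox13, Sox15, Sox17 and Sox18, are members of the Sox family other than Sox2. They were taken by gene symbol, and each was read from its RefSeq transcript with the highest mean level over 17 libraries, so that 10 of 23891 gene symbols are covered. Sox3 was chosen by its measured FPKM, which was lower in MASCs than in SSCs, and its differences from SSCs are therefore given as a description with no test. The remaining 9 genes were tested in the comparisons with SSCs. They and the gene lists below were also chosen with earlier results of these data known. Counts of them beside the shares of all transcripts are therefore descriptions, not tests of the family. Levels are in FPKM (fragments per kilobase of transcript, scaled to the upper quartile of the library by the authors), a unit that corrects for transcript length and depth. Differences are on the log2(FPKM + 1) scale, which understates the change of genes with low levels.

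SOX proteins are transcription factors that bind DNA through an HMG box, a domain related to that of SRY. They usually act with a partner factor, and the family is divided into groups by the sequence of the HMG box. Sox2 and Sox3 belong to the SoxB1 group, Sox4, Sox11 and Sox12 to SoxC, Sox13 to SoxD, Sox9 to SoxE, Sox7, Sox17 and Sox18 to SoxF, and Sox15 to SoxG. In the testis Sox3 is a gene of undifferentiated spermatogonia, and in pluripotent cells SOX2 binds with OCT4, the product of Pou5f1.

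RNA was sequenced from 4 lines of cultured spermatogonial stem cells (SSCs), 6 lines of multipotent adult spermatogonial-derived stem cells (MASCs), 2 lines of embryonic stem cells (ESCs), 2 lines of induced pluripotent stem (iPS) cells, 2 cultures of haematopoietic stem and progenitor cells (HSCs) and 1 culture of mouse embryonic fibroblasts (MEFs). SSCs were cultured from the testes of adult mice with GDNF on fibroblast feeders, and MASCs were lines grown from colonies that arose in SSC cultures without added genes. MASCs, ESCs and iPS cells were grown with LIF on fibroblast feeders. HSCs were lineage-negative cells kept on human endothelial (E4ORF1-HUVEC) feeders.

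The mouse strain differed between lines. SSC.1, SSC.2, MASC.1, MASC.2 and ESC.1 were Oct4-GFP, a strain that carries a fluorescent reporter of Oct4. SSC.4, MASC.3, MASC.4, ESC.2, both iPS lines and the MEFs were 129mix. SSC.3 and both HSC cultures were C57Bl/6J, and MASC.5 and MASC.6 were Gt(ROSA26)Sor-lacZ. The iPS lines were made with 2 µg/ml doxycycline from E13.5 MEFs that carried tetO-4F2A, an inducible cassette of reprogramming factors, together with H3.3B-HA, and the MEF culture came from E13.5 H3.3B-HA embryos. The study states that the MASC and ESC lines were subcloned. The labels do not say which lines came from separate mice, so p-values rest on the spread between lines and treat each line as independent.

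The files gave no read totals. A transcript at 1 FPKM had a coverage of 1.26 to 3.23 in the 17 libraries, and 13532 to 16272 transcripts reached 1 FPKM. Of the 170 values of the 10 genes, 14 had a lower Cufflinks confidence bound of 0. All 10 pluripotency markers were higher in MASCs than in SSCs. Of 11 spermatogonial markers, 7 were lower in MASCs and 1, Etv5, was higher (limma difference 1.72, adjusted p = 0.0397). All 10 haematopoietic markers were higher in HSCs than in the mean of MASCs, ESCs and iPS cells. All 7 mast cell markers were also higher in the HSC cultures, where they summed to 50181 and 26040 FPKM. The sum of 13 fibroblast markers in the feeder-grown lines ran from 0.111% of its MEF level in SSC.2 to 16.3% in MASC.1. In such bulk samples, fewer cells of a type and less RNA per cell cannot be told apart.

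Promoter sequences in the RefSeq table (GRCm38.p6) covered 5 of the 10 genes, Sox4, Sox11, Sox12, Sox13 and Sox15. The 250 bases before the annotated start are shown 5′ to 3′ for Sox15 and Sox11, which were higher in MASCs than in SSCs, for Sox13, which was lower, and for Sox12, whose mean levels were close in both. Capitals mark CpG dinucleotides. The Sox15 promoter lies at chr11:69654787-69655036 (plus strand), the Sox11 promoter at chr12:27342719-27342968 (minus strand), the Sox13 promoter at chr1:133424213-133424462 (minus strand) and the Sox12 promoter at chr2:152398047-152398296 (minus strand).
Sox15: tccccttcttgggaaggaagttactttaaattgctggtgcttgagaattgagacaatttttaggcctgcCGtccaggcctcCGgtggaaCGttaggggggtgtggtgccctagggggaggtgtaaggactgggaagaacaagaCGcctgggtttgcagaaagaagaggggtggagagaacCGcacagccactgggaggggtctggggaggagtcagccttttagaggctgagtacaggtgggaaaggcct
Sox11: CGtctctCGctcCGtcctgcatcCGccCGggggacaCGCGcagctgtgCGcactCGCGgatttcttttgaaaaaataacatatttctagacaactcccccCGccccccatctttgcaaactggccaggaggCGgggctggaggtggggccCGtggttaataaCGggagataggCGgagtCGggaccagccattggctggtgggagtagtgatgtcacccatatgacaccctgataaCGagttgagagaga
Sox13: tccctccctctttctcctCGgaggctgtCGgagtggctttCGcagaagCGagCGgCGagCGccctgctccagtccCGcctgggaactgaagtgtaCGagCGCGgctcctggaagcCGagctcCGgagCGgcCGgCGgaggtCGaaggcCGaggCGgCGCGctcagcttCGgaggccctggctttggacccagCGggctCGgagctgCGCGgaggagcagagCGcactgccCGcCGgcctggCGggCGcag
Sox12: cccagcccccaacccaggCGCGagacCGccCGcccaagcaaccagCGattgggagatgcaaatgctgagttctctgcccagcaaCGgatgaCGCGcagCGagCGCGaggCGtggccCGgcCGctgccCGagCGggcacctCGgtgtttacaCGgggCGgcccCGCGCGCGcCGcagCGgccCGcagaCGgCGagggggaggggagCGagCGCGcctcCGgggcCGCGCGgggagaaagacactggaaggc

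The Sox15 promoter held 5 CpG dinucleotides, against 17 in that of Sox11, 31 in that of Sox13 and 35 in that of Sox12. The Sox4 promoter held 11. The median over 32841 mouse promoters of the same length was 6, and 44.4% of them had fewer CpG dinucleotides than Sox15, against 97.0% for Sox12 and 94.8% for Sox13. Relative to base composition, the CpG content was 0.299 of that expected in the Sox15 promoter and between 0.801 and 1.01 in the other 4. The octamer ATGCAAAT, a recognition sequence of POU factors, was searched on both strands and was found in the promoter of Sox12 but in none of the other 4. It occurred in 1.6% of all promoters. Neither AACAAT, a core sequence bound by SOX proteins, nor TATAAA was found in any of the 5 windows on either strand, and these motifs occurred in 9.43% and 12.4% of all promoters. None of the 3 motifs contains another. These are matches of letters and were not tested as binding sites.

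**Figure D1:**
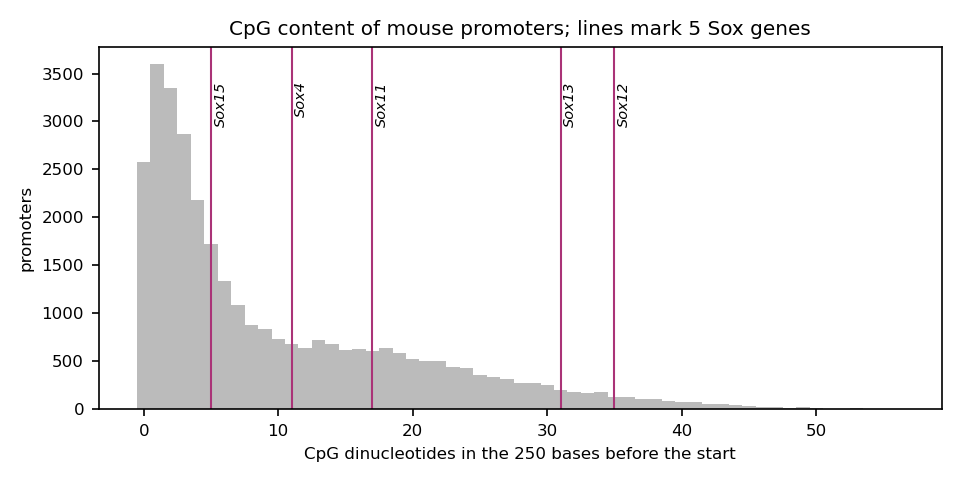
Number of mouse promoters (y axis) by the number of CpG dinucleotides in the 250 bases before the start (x axis). Vertical lines mark the 5 Sox genes: Sox15, with 5, lies near the median of 6, and Sox12, with 35, has the highest number among the 5.

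In the mm9 coordinates of the files, the transcript of Sox3 lies at chrX:58144541-58146605, that of Sox15 at chr11:69468539-69470229, that of Sox11 at chr12:28019133-28027583 and that of Sox13 at chr1:135278877-135320789. The transcripts of Sox3, Sox4, Sox11 and Sox12 are as long as their loci, that is, they hold no intron, and the values below cover the whole transcript.

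The level of each gene was first compared across the 6 cell types. In SSCs the largest contributions to the summed FPKM of the 10 genes came from Sox3 in 3 lines and from Sox13 in SSC.2, whereas Sox15 had the highest level in 5 of 6 MASC lines. The summed level ran from 93.0 to 255 FPKM in SSCs, from 70.6 to 100.3 in MASCs and from 6.70 to 47.0 in HSCs. In MEFs it was 60.7, of which Sox4 gave 45.2 FPKM.

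**Figure D2:**
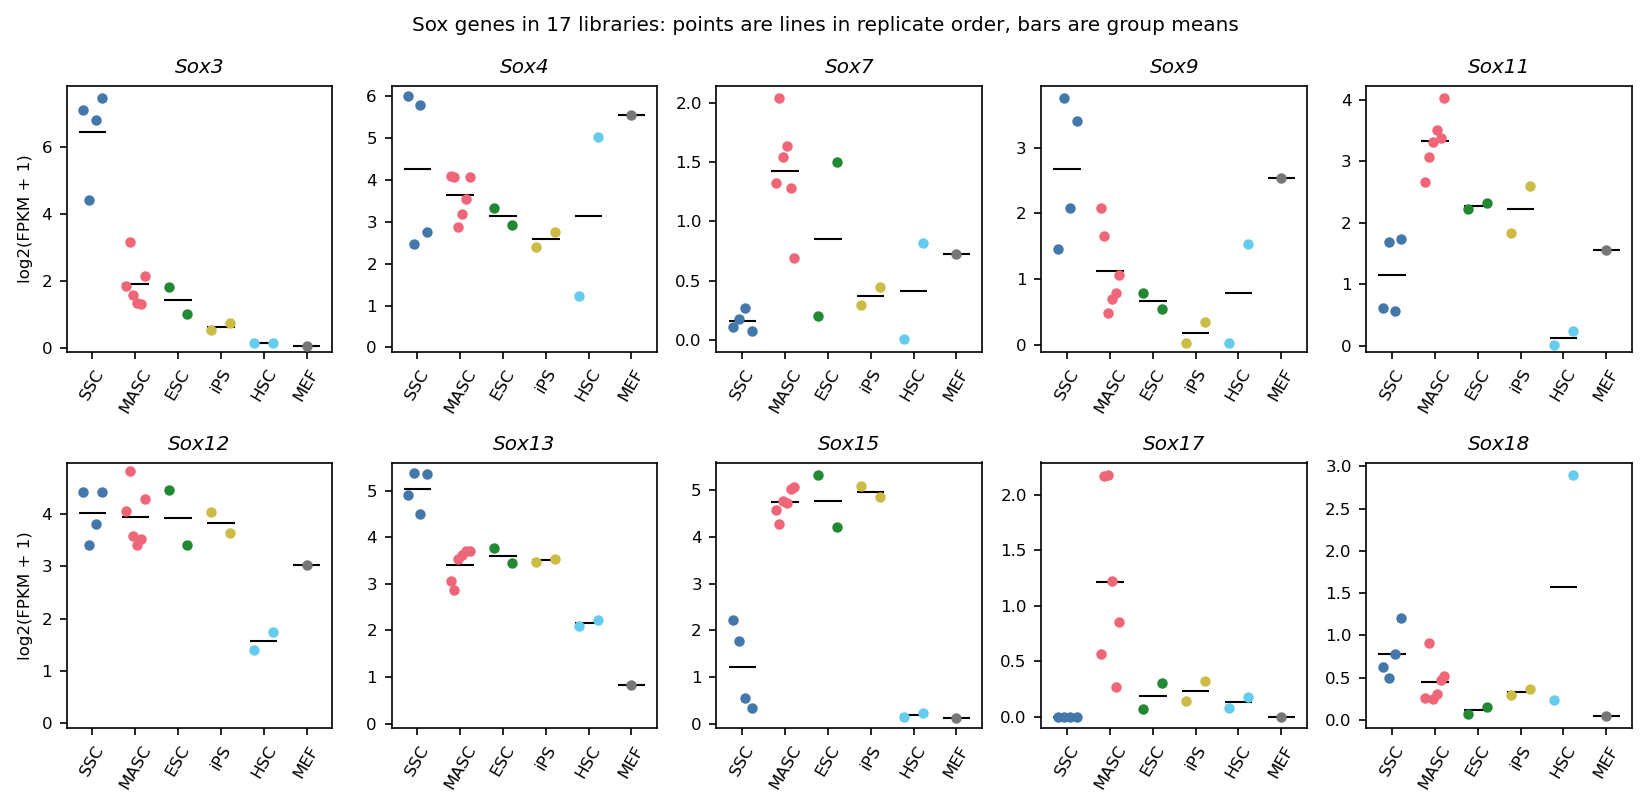
Levels of the 10 genes as log2(FPKM + 1) (y axis) in SSCs, MASCs, ESCs, iPS cells, HSCs and MEFs (x axis). Each point is a line or culture and each bar is the mean of a cell type. The SSC and MASC points do not overlap for Sox3, Sox7, Sox11, Sox13, Sox15 and Sox17.

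Sox3, a SoxB1 gene, had 137, 20.7, 112 and 175 FPKM in SSC.1 to SSC.4. In MASCs it ran from 1.5 through a median of 2.33 to 8.09 FPKM. All 6 MASC lines were therefore below the lowest SSC line, and SSC.2 stood well below the other 3 SSC lines. Sox3 was at 2.53 and 1.05 FPKM in ESCs, 0.460 and 0.676 in iPS cells, 0.120 and 0.128 in HSCs and 0.0466 in MEFs. The order of the means was SSC, MASC, ESC, iPS, HSC and MEF, and of these neighbours the MASC and ESC ranges overlapped. The mean in SSCs was 34.6 times that in MASCs. The difference of MASCs from SSCs was -4.54 ± 0.60 (SE), and it was -3.25 within Oct4-GFP and -5.99 within 129mix. The 2 genes whose levels were most like those of Sox3 over the 17 libraries were Jph3 (Pearson r = 0.976) and C1qtnf4 (r = 0.972), among 15274 genes searched. These libraries share their cell types and strains, so r is given as a description here and for the genes below.

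MASCs were then compared with SSCs to ask which Sox genes differ between the cultured germline cells and multipotent lines that arise in SSC cultures. Of the 9 genes tested, 6 passed an adjusted p under 0.05 with a difference of at least 1, and among all 32661 transcripts 15.6% did (limma, Benjamini-Hochberg adjustment over all transcripts). Sox15, Sox11, Sox7 and Sox17 rose, where 6.04% of all transcripts were higher in MASCs, and Sox13 and Sox9 fell, where 9.60% of all transcripts were lower. With a difference of at least 2, Sox15 and Sox11 remained, against 3.86% of all transcripts. All 10 Sox genes reached 1 FPKM in at least 2 of the 17 libraries. The shares of all transcripts here and below also include transcripts that did not. A fit limited to transcripts at 1 FPKM or more in at least 2 of the 12 SSC, MASC and ESC lines kept 18757. Of these, 5413 passed with a difference of at least 1, and 1307 with at least 2. It kept 8 of the tested Sox genes, of which 6 and 2 passed. Sox7 and Sox17 met this filter through MASC or ESC lines alone, as neither reached 1 FPKM in any SSC line. For these genes the filter itself selects on the difference, so the count of 6 is a description only. The median difference was -0.07 over the 9 genes and -0.0048 over all transcripts. The lines of both cell types did not overlap for 5 of the 9 genes, 4 of them above and 1 below, against 25.3% of all transcripts. When the libraries were rescaled to a common upper quartile, the split of all calls of at least 2 moved from 565 higher and 697 lower to 684 higher and 558 lower, and quantile normalization gave 673 higher and 546 lower. Sox15, Sox11, Sox7, Sox17 and Sox13 kept their calls under both scalings, and Sox9 did not.

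Sox15, the only SoxG gene in mice, had 3.63, 2.42, 0.472 and 0.252 FPKM in SSC.1 to SSC.4. In MASCs it ran from 18.4 through a median of 25.8 to 32.5 FPKM, and no MASC line was near an SSC line. The mean was 15.4 times higher in MASCs. The difference was 3.52 ± 0.40 (adjusted p = 0.000125), and it was 2.44 within Oct4-GFP and 4.42 within 129mix. The SSC lines with the higher values were both Oct4-GFP, and the sum of 10 pluripotency markers in SSC.1 to SSC.4 was 171, 59.9, 56.0 and 28.3 FPKM, against 3441 to 5142 in MASCs; its part in the Sox15 values was not tested. Sox15 overlaps Mpdu1 by 24 bases, and Mpdu1 had 19.5 to 77.8 FPKM in the 17 libraries, so that reads in the shared bases cannot be assigned to either gene unless strand was used. The gene most like Sox15 over the 17 libraries was Gm6083 (r = 0.982), followed by Sox2 (r = 0.980).

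Among the SoxC genes, which act in progenitor cells and in neuronal differentiation, Sox11 differed from Sox4 and Sox12. Sox11 had 0.531, 2.23, 0.474 and 2.32 FPKM in SSC.1 to SSC.4 and ran from 5.34 through a median of 9.16 to 15.3 in MASCs. Every MASC line was above every SSC line. The mean was 6.80 times higher in MASCs, and the difference was 2.18 ± 0.32 (adjusted p = 0.00062). Within Oct4-GFP it was 1.71 and within 129mix 1.68, and with strain as a block it was 1.71 (adjusted p = 0.00683), so that Sox15 alone stayed past a difference of 2. Without SSC.1 or without SSC.3 the Sox11 difference was below 2, at 1.98 without SSC.3, while its adjusted p stayed at or below 0.00243 whichever line was left out. The gene most like Sox11 was Tmem125 (r = 0.941).

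Sox4 had 62.7, 4.54, 54.1 and 5.70 FPKM in SSC.1 to SSC.4, so that a pair of SSC lines stood above all MASC lines and the other pair below the lowest. In MASCs it ran from 6.29 through a median of 13.1 to 16.1 FPKM. The difference was -0.61 ± 0.73 and did not pass (adjusted p = 0.61). SSC.1 and SSC.3, the SSC lines with high Sox4, also had the higher fibroblast marker sums, 351 and 867 FPKM, against 8.87 in SSC.2 and 79.3 in SSC.4. Those sums were 4.41% and 10.9% of the MEF level, and Sox4 in the same lines was at 139% and 120% of its MEF level. The part of feeder cells in the Sox4 values was not tested. MASC.1 had the highest marker sum among the feeder-grown lines, 1298 FPKM, and a Sox4 level of 16.1 FPKM. Without the 4 lines richest in fibroblast markers among the 12 SSC, MASC and ESC lines, SSC.1, SSC.3, MASC.1 and ESC.1, an alternative chosen after seeing the data, the Sox4 difference turned to 0.93 and still did not pass (adjusted p = 0.144).

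Sox12 had 20.4, 9.66, 13.1 and 20.3 FPKM in SSC.1 to SSC.4 and ran from 9.66 through a median of 13.3 to 27.2 in MASCs. The groups overlapped over nearly the whole range, and the difference was -0.07 ± 0.35 (adjusted p = 0.977). Its sign turned in 9 other fits, up to 0.13, and the difference was 0.52 within Oct4-GFP and -0.92 within 129mix.

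Sox13, a SoxD gene that is known in T lymphocytes, had 29.2, 40.5, 21.5 and 39.8 FPKM in SSC.1 to SSC.4. In MASCs it ran from 6.27 through a median of 10.9 to 12.1 FPKM, so that every MASC line was below every SSC line. The mean was 3.30 times higher in SSCs, and the difference was -1.62 ± 0.23 (adjusted p = 0.000554). It was -2.19 within Oct4-GFP and -1.78 within 129mix. The genes most like Sox13 were Taf5 (r = 0.984) and Trim37 (r = 0.978).

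Sox9, the SoxE gene required in Sertoli cells and cartilage, had 1.75, 12.4, 3.23 and 9.56 FPKM in SSC.1 to SSC.4 and ran from 0.399 through a median of 0.915 to 3.24 in MASCs. MASC.1 and MASC.2 overlapped the lower SSC lines. The difference was -1.54 ± 0.49 (adjusted p = 0.0374), -0.73 within Oct4-GFP and -2.81 within 129mix. The call was lost with strain as a block (adjusted p = 0.127), under both rescalings (adjusted p = 0.0707 and 0.0515) and in 8 of the 12 fits that left out a line, with adjusted p from 0.0523 without either ESC line to 0.107 without SSC.4. The high values of Sox9 lay in SSC.2 and SSC.4, the lines with low Sox4 and low fibroblast marker sums. The Sertoli cell markers summed to 14.8 and 17.3 FPKM in those lines and to 25.7 and 24.3 in SSC.1 and SSC.3. Wt1 made up most of each sum, and the remaining markers are not given singly. Wt1 was at 8.17 and 13.3 FPKM in SSC.2 and SSC.4 and at 20.9 and 14.3 in SSC.1 and SSC.3. The part of Sertoli cells in the Sox9 values was not tested. The gene most like Sox9 was Socs5 (r = 0.954).

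**Figure D3:**
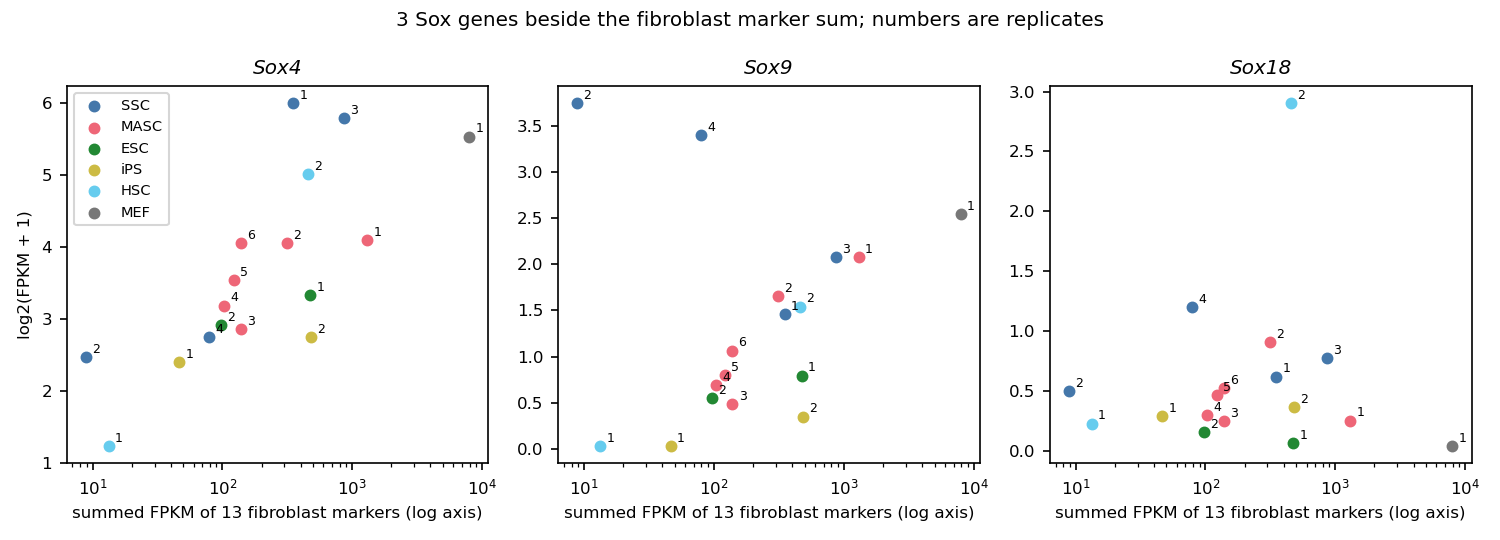
Levels of Sox4, Sox9 and Sox18 as log2(FPKM + 1) (y axis) against the summed FPKM of 13 fibroblast markers (x axis, log scale) in the 17 libraries, coloured by cell type and numbered by replicate. SSC.1 and SSC.3 lie high for Sox4, SSC.2 and SSC.4 lie high for Sox9 at low marker sums, and HSC.2 stands apart for Sox18.

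The SoxF genes act in endoderm and in blood and lymphatic vessels. Sox7 had 0.0786, 0.128, 0.203 and 0.0556 FPKM in SSC.1 to SSC.4 and ran from 0.617 through a median of 1.72 to 3.12 in MASCs. The groups did not overlap, and the difference was 1.27 ± 0.29 (adjusted p = 0.00762), 1.54 within Oct4-GFP and 1.51 within 129mix. Sox17 was listed at or near 0 in all 4 SSC lines, and the sum over its 5 transcripts there was at most 0.0385 FPKM. In MASC.1 to MASC.6 it had 0.477, 3.51, 3.53, 1.34, 0.209 and 0.810 FPKM. Every MASC line was above the SSC lines, but MASC lines differed widely among themselves. The Sox17 difference was 1.21 ± 0.38 (adjusted p = 0.0362), 1.37 within Oct4-GFP and 1.70 within 129mix. The call was lost in 9 of the 12 fits that left out a line, each SSC line, each ESC line and MASC.2, MASC.3 and MASC.4, with adjusted p from 0.0506 to 0.0749.

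MASC.2 and MASC.3, the lines with the highest Sox17, also had the highest Gata6 and Gata4, a pair of genes that mark primitive endoderm. Gata6 had 2.45, 8.91, 4.54, 2.09, 0.646 and 0.811 FPKM in MASC.1 to MASC.6. Gata4 had 2.24, 10.7, 7.06, 3.56, 0.560 and 0.850 FPKM. Sox7 was likewise highest in MASC.2, with 3.12 FPKM, and lowest in MASC.6, with 0.617 FPKM. Gata6 and Gata4 are among the 10 primitive and visceral endoderm markers. The sum of the 10 was higher in MASC.1 (18.9 FPKM) than in MASC.4 (11.9), whereas Sox17 was lower there (0.477 against 1.34). That sum was 42.9 FPKM in MASC.2 and 21.1 in MASC.3. It was between 4.92 and 18.9 in the other MASC lines and between 20.2 and 27.6 in SSCs. In SSCs that sum contained Foxa2, at 0.487 to 15.2 FPKM. None of the 10 markers was higher in MASCs than in SSCs at an adjusted p under 0.05 in limma. Gata6 and Gata4 did not pass (adjusted p = 0.0742 and 0.841), and Afp was lower (difference -2.37, adjusted p = 0.00256). The part of these markers in the Sox7 and Sox17 values was not tested. The genes most like Sox17 were Hkdc1 (r = 0.965) and Pla2g12b (r = 0.950), and that most like Sox7 was Ankrd33b (r = 0.920).

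**Figure D4:**
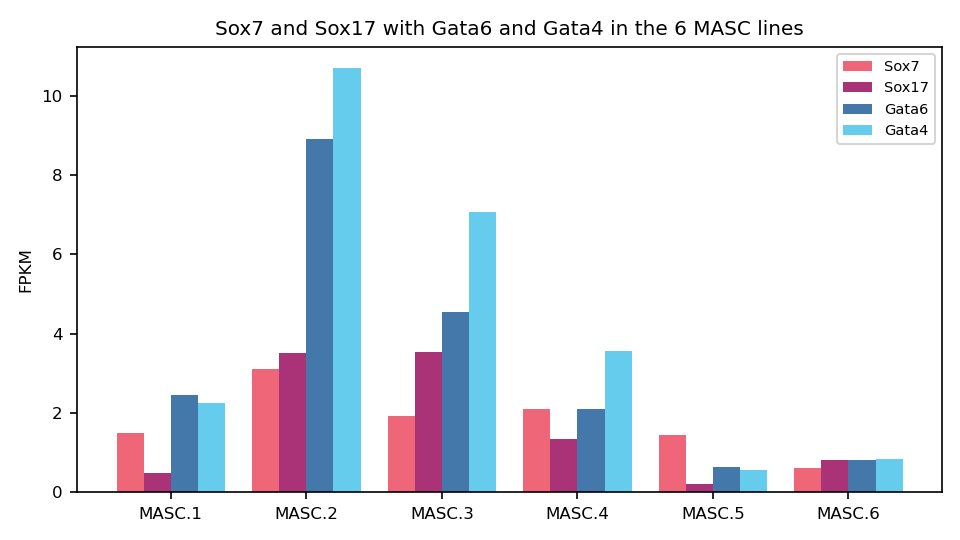
FPKM (y axis) of Sox7, Sox17, Gata6 and Gata4 in the 6 MASC lines (x axis), 1 bar per library. The other endoderm markers are not shown. All 4 genes are high in MASC.2, and Sox17, Gata6 and Gata4 are each below 0.9 FPKM in MASC.5 and MASC.6.

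Sox18 had 0.538, 0.411, 0.715 and 1.30 FPKM in SSC.1 to SSC.4 and ran from 0.190 through a median of 0.306 to 0.876 in MASCs. The groups overlapped, and the difference was -0.32 ± 0.16 (adjusted p = 0.171).

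ESCs were compared with SSCs next, with the same SSC lines as controls, so that this comparison is not independent of the one with MASCs. Of the 9 genes tested, Sox15 and Sox13 passed with a difference of at least 1, against 13.7% of all transcripts. Sox15 passed at a difference of at least 2, against 4.08%. Sox15 had 39.3 and 17.5 FPKM in ESC.1 and ESC.2, both above every SSC line, and the difference was 3.55 ± 0.53 (adjusted p = 0.00126). Sox13 had 12.6 and 9.83 FPKM, both below every SSC line, and the difference was -1.43 ± 0.31 (adjusted p = 0.00931). Without ESC.2 the Sox13 call was lost (adjusted p = 0.0882). Sox9, at 0.734 and 0.463 FPKM, was below every SSC line but did not pass (difference -2.0 ± 0.65, adjusted p = 0.0569), and neither did Sox11, at 3.65 and 4.02 FPKM (1.12 ± 0.43, adjusted p = 0.0947). Sox9 passed in 7 other settings, with adjusted p from 0.0153 to 0.0483. Sox7 was at 0.152 FPKM in ESC.1 and 1.83 in ESC.2, and Sox17 was at 0.0544 and 0.236. Sox3 was described only: its difference was -5.03 ± 0.81. The split of all calls of at least 2 was 565 higher and 767 lower, and 699 higher and 575 lower after rescaling to a common upper quartile.

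**Figure D5:**
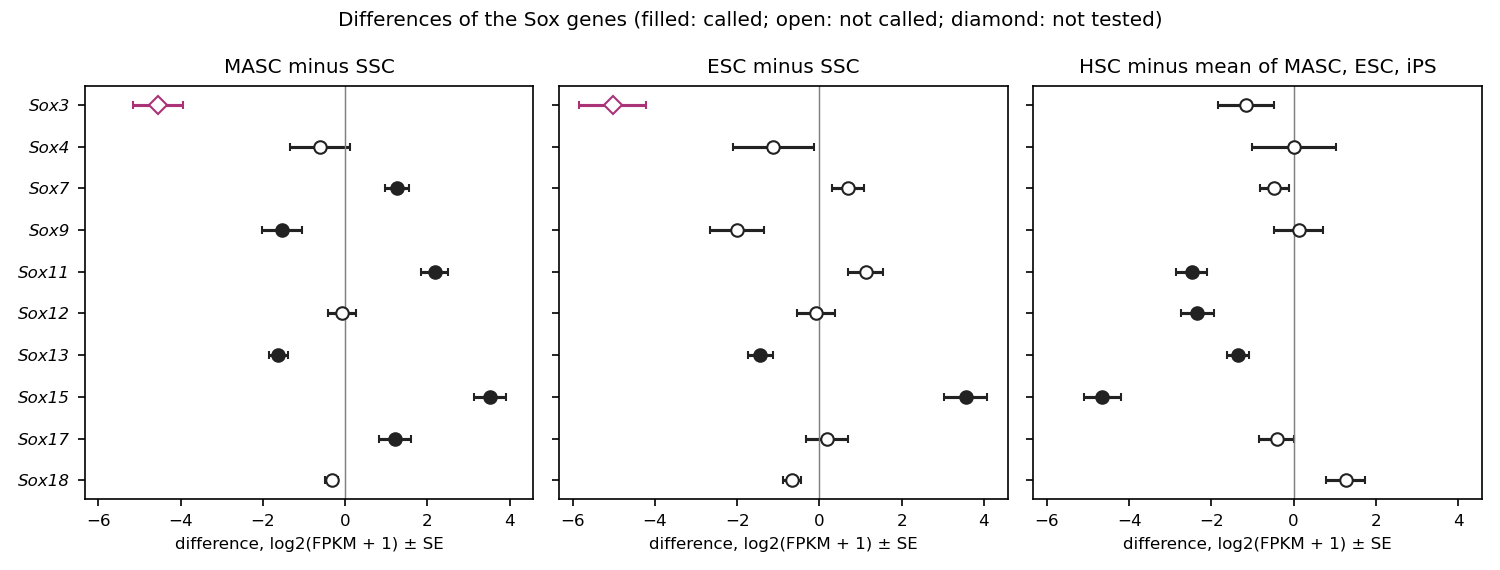
Differences with standard errors on the log2(FPKM + 1) scale (x axis) of the 10 genes (y axis) for MASCs minus SSCs, ESCs minus SSCs, and HSCs minus the mean of MASCs, ESCs and iPS cells. Filled points passed an adjusted p under 0.05 with a difference of at least 1, open points did not, and diamonds were not tested. Sox15 is at 3.52 and 3.55 in the first and second panels and at -4.65 in the third.

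MASCs were compared with ESCs to ask whether the Sox genes of germline-derived multipotent lines differ from those of embryo-derived lines. None of the 10 genes passed in limma, where 0.0184% of all transcripts did, and 1 of the 10, Sox11, had an unadjusted p under 0.05 in that fit. Sox11 and Sox18 were each higher in every MASC line than in both ESC lines, Sox18 at levels below 1 FPKM. The share of all transcripts without overlap was not counted for this comparison. The Sox11 difference was 1.05 ± 0.40. With 2 ESC lines the other 9 differences ran from -0.19 to 1.02, with standard errors of 0.21 to 0.93. The Sox15 difference was -0.03 ± 0.50 and that of Sox17 was 1.02 ± 0.48. iPS cells were compared with ESCs in the same manner. None of the 10 genes passed in limma, against 0.116% of all transcripts, and none had an unadjusted p under 0.05. Sox15 was at 32.9 and 27.7 FPKM in the iPS lines, Sox12 at 15.4 and 11.5, Sox13 at 10.1 and 10.6, and Sox11 at 2.58 and 5.08. In the MEF culture, the cell type from which iPS lines were made, Sox15 was at 0.0928 FPKM and Sox13 at 0.786, while Sox4 was at 45.2 and Sox9 at 4.83, against 4.30 and 5.74 for Sox4 and 0.0189 and 0.274 for Sox9 in iPS cells. With a single MEF culture these values carry no test.

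HSCs were compared with the mean of MASCs, ESCs and iPS cells to set those lines beside the cultures labelled as somatic stem and progenitor cells. In both cultures the 7 mast cell markers summed to more than the 10 haematopoietic markers, which were at 1703 and 1099 FPKM, and the part of mast cells in the values below was not tested. Of the 10 genes, 4 were lower in HSCs with a difference of at least 1, against 11.2% of all transcripts, and 3 with a difference of at least 2, against 3.85%. Sox15 was at 0.0979 and 0.165 FPKM in HSC.1 and HSC.2 and fell by 4.65 ± 0.44 on the log2 scale (adjusted p = 7.44e-06). Sox11 was at 0.0091 and 0.181 FPKM (difference -2.48 ± 0.38, adjusted p = 0.000292). Sox12 was at 1.62 and 2.33 FPKM, below all other libraries (difference -2.34 ± 0.40, adjusted p = 0.000649). Sox13 was at 3.24 and 3.63 FPKM (difference -1.36 ± 0.26, adjusted p = 0.00155). Both HSC cultures were C57Bl/6J, a strain shared with SSC.3 alone, and with strain as a block Sox15 kept its call (adjusted p = 0.00467) while Sox11, Sox12 and Sox13 lost theirs (adjusted p = 0.107, 0.0681 and 0.367). Apart from that shared strain, strain and cell type cannot be told apart in this comparison.

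The HSC cultures stood far apart from each other in Sox4, Sox7, Sox9 and Sox18. Sox4 was at 1.36 FPKM in HSC.1 and 31.2 in HSC.2. Sox18, a gene of vascular endothelium, was at 0.173 and 6.48 FPKM, the second being its highest value in the 17 libraries. Sox7 was at 0.0050 and 0.764 FPKM and Sox9 at 0.0194 and 1.91. All 4 genes were therefore higher in HSC.2. The fibroblast marker sum was 13.3 FPKM in HSC.1 and 458 in HSC.2, and 2 of 10 endothelial markers reached 1 FPKM in HSC.1 and 8 in HSC.2. The endothelial markers summed to 47.6 and 58.0 FPKM. Pecam1 was lower in HSC.2, at 19.2 FPKM against 42.3, and the other 9 were higher there. Of these 9, Tie1 was at 0.316 and 14.1 FPKM, Kdr at 0.0641 and 3.45, and Cdh5 at 0.0242 and 1.15. The part of other cells in these values was not tested. The Sox18 difference was 1.27 ± 0.48 (adjusted p = 0.0604), 2.61 without HSC.1 (adjusted p = 1.82e-05) and -0.066 without HSC.2 (adjusted p = 1), so that it rested on HSC.2. The difference of Sox4 was 0.01 ± 1.03, and it was -1.88 without HSC.2 and 1.90 without HSC.1.

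The other family members were counted for context. Of 10 other Sox genes, 5 passed an adjusted p under 0.05 at any difference in MASCs against SSCs, as did 30.9% of all transcripts. Sox2 was at 3.13 FPKM or below in SSCs and at 120 to 168 in MASCs (difference 6.27 ± 0.34, adjusted p = 1.66e-06). Sox1, a SoxB1 gene like Sox3, rose by 1.48 ± 0.31 (adjusted p = 0.00543) from 0.0937 to 0.197 FPKM in SSCs to 1.24 to 5.65 in MASCs, and Sox21 rose by 1.26 ± 0.31 (adjusted p = 0.0115). Sox30, a gene of meiotic and later male germ cells, decreased by 1.15 ± 0.21 (adjusted p = 0.00243), and Sox8, a SoxE gene like Sox9, had a difference of -0.77 ± 0.21 (adjusted p = 0.0195). Sox10 reached 5.72 FPKM in SSC.1 and 1.09 in SSC.3 and did not pass (adjusted p = 0.172). Sox5, Sox6, Sox14 and Sry were below 1 FPKM in all 17 libraries.

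Of 8 factors known to partner with SOX proteins, 2 were higher by at least 2 in MASCs than in SSCs, as were 1.73% of all transcripts, and none was lower. Pou5f1 rose by 6.66 ± 0.89 (adjusted p = 0.00036), from 1.37 to 94.5 FPKM in SSCs, the highest being SSC.1, to 693 to 1007 in MASCs. Rbpj was the other, at 1 of its transcripts (difference 4.39 ± 0.82, adjusted p = 0.00266). Of 12 genes known as SOX targets, 4 were higher by at least 2, against the same 1.73% of all transcripts, and none was lower. Fgf4 and Utf1, like Pou5f1, also belong to the pluripotency markers counted above, all of which were higher in MASCs. The partner and target lists were chosen with earlier results of these data known. Their counts beside the share of all transcripts are therefore descriptions. Whether the Sox genes described here acted on the target genes was not tested. Fgf4 rose by 5.98 ± 0.13 (adjusted p = 4.39e-09), Utf1 by 5.14 ± 0.30 (adjusted p = 2.49e-06), Lefty1 by 5.21 ± 0.45 (adjusted p = 2.69e-05) and Tubb3, a neuronal tubulin, by 2.69 ± 0.60 (adjusted p = 0.00749). Neurog3, a gene of spermatogonia and endocrine progenitors, fell by 1.93 ± 0.48 (adjusted p = 0.0121). The median difference was 0.03 over the partner factors and 0.27 over the target genes, against -0.0048 over all transcripts.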

How the data were processed

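RNA was sequenced in 17 mouse libraries, which the study prepared with an Illumina TruSeq RNA kit. Per the labels and the study's methods, the authors aligned reads to mm9 with TopHat2 2.0.11, excluded duplicate and multi-mapped reads, and estimated FPKM with Cufflinks, with upper-quartile and GC normalization; the deposited files hold FPKM per transcript with confidence bounds, and coverage, used here to describe depth only. Whether strand was used is not given in the sources used here. Exclusion of multi-mapped reads can lower values where paralogs share sequence. Of 33262 rows per file, 601 further loci of a transcript were left out.

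FPKM were transformed to log2(FPKM + 1) and tested with limma 3.58.1 in R 4.3.3 over 32661 transcripts, with Benjamini-Hochberg adjustment, over the 12 SSC, MASC and ESC lines or, for HSCs and iPS cells, all 17 libraries. Genes were called to rise or fall with an adjusted p under 0.05 and a difference of at least 1; a threshold of 2 was also counted. Single genes of the lists of other Sox genes, SOX partners and SOX targets were read from their transcript with the highest mean level. In simulated data with independent noise, 200 of the 32661 transcripts, each with a mean log2(FPKM + 1) above 1, were shifted by 3 in MASCs. At a difference of at least 2, the MASC and SSC comparison recovered 186 of them, with 2 false calls among the unshifted transcripts. Differences as small as those of Sox7, Sox9 and Sox17, and shifts in transcripts of lower level, were not simulated. Each line was left out in turn, and strain and replicate number were tried as blocks. The 10 genes were named by a fixed rule, with the 2 genes of highest Pearson r for each. Members and lists were chosen with earlier results of these data known. Replicate numbers did not pair the samples. Promoters are from RefSeq (GRCm38.p6), and the files' mm9 coordinates were not mixed with them.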

Additional observations from a re-analysis of the deposited data

How the results depend on the processing

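Counts below are transcripts or Sox genes with an adjusted p under 0.05 (limma) and a difference of at least 2. With a pseudocount of 0.1, 3219 transcripts passed in MASCs against SSCs, 3079 in ESCs against SSCs, 5522 in HSCs and 33 in iPS cells against ESCs, with 5 and 3 Sox genes in the first and second. With a difference of at least 1 these were 5109, 4479, 7031 and 38, with 6 and 2 Sox genes. A strain block left 1 Sox gene (Sox15) in MASCs against SSCs and 1 (Sox15) in HSCs. Replicate numbers did not deviate together (mean correlation -0.031 over 4 pairs), and the replicate block left 1 Sox gene in MASCs against SSCs and 2 transcripts in MASCs against ESCs, and the calls of Sox9 in MASCs (adjusted p = 0.205) and Sox13 in ESCs (adjusted p = 0.0993) against SSCs were lost; all 17 samples in the fit also left 2. In ESCs against SSCs, where Sox9 lay at the threshold, 2 Sox genes passed with an FPKM filter, with 1 row per gene symbol, with all 17 samples, without SSC.1 and MASC.1, and without the 4 of the 12 SSC, MASC and ESC lines richest in fibroblast markers, a choice made after seeing the data that gave 27 transcripts in MASCs against ESCs. One row per gene symbol gave 6 in iPS cells against ESCs. Leaving out 1 line gave 1 to 2 Sox genes in MASCs against SSCs, 1 without SSC.1 or SSC.3, and 1 to 2 in ESCs against SSCs, 3 to 4 in HSCs, 5 to 25 transcripts in MASCs against ESCs, the most without ESC.2, and 13 to 43 in iPS cells against ESCs, the most without iPS.1. The cause was not tested.

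The differences that changed sign had not passed in the reported fit, and none passed with the opposite sign. Sox12 in MASCs against SSCs was 0.11 with quantile normalization, 0.13 with upper-quartile rescaling, 0.042 without SSC.1 and MASC.1, 0.0085 without the 4 lines and 0.52 within Oct4-GFP, and -0.27 to 0.064 with 1 line left out. Against SSCs in ESCs it was 0.11, 0.15 and 0.048 in the first 3 of these, and -0.62 to 0.44 with 1 line left out. Sox4 without the 4 lines was 0.93 in MASCs and 0.31 in ESCs, and 0.28 within 129mix. In HSCs Sox4 was -0.19 with a pseudocount of 0.1, -0.068 with upper-quartile rescaling, -2.36 with a strain block, -0.046 with a replicate block and -1.88 to 1.90 with 1 line left out, and Sox9 was -0.18 with a pseudocount of 0.1, -0.0071 with a replicate block and -0.64 to 0.88. Sox18 was 0.022 within Oct4-GFP and, in HSCs, -0.066 to 2.61 with 1 library left out. Sox11 in iPS cells against ESCs was -0.43 to 0.33. An exact two-sided permutation test of MASCs against SSCs, not adjusted over the 9 genes, gave p = 0.00952, the smallest this design allows, for Sox7, Sox11, Sox13, Sox15 and Sox17, p = 0.0476 for Sox9 and p = 0.124 to 0.867 for Sox4, Sox12 and Sox18. That smallest p follows wherever the lines of both cell types do not overlap, so for those genes it restates the lack of overlap. Depth limits Sox7, Sox17 and Sox18, whose values were mostly near 1 FPKM or below.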
